A study of Mus musculus with 9 samples.

Results

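The acinar cell of the pancreas packs its digestive enzymes into zymogen granules together with proteins that are not proteases, lipases or amylases. Of 55453 genes listed, 10 of this kind were followed across all 9 libraries: the secreted ribonuclease Rnase1, the tissue kallikrein Klk1, the granule proteins Zg16, Sycn, Gp2 and Cuzd1, the serpin Serpini2, the scavenger receptor domain protein Dmbt1, the trypsin inhibitor Spink1 and the endoplasmic reticulum protein Erp27. They were taken by name, as products that acinar cells secrete or keep in their granules and secretory pathway outside those 3 enzyme families. All 10 passed the filter on low counts in the test of 19166 genes. Klk1 is itself a serine protease by activity, so the set is defined by family and packaging rather than by the absence of all proteolytic function.

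Bulk RNA-seq of whole pancreas was made from mouse embryos at stage e18.5, strain mixed, C57BL6, with 3 embryos in each of 3 genotype groups. All 9 carried Pdx1:Cre, in which the Pdx1 promoter limits Cre mostly to the pancreatic epithelium, so that blood, vessel and mesenchymal cells of the organ are measured along but are largely not targeted. The control group carried Pdx1:Cre alone, and the others are labelled Pdx1:Cre;Grg3 and Pdx1:Cre;Grg3Grg4, after the Groucho co-repressors Grg3 and Grg4 that are encoded by Tle3 and Tle4. They are called the Grg3-labelled and Grg3Grg4-labelled libraries below, because Tle3 went against the labels: it was measured at 64.8 ± 2.5 CPM (counts per 1000000 gene counts, scaled between libraries by TMM) in the controls, 153 ± 12.1 in the Grg3-labelled and 135 ± 10.4 in the Grg3Grg4-labelled libraries (SD, n = 3). Tle4 stood at 7.77 ± 0.09, 12.2 ± 2.10 and 11.6 ± 3.52 CPM. Every direction in the text is therefore a direction between labels. Counts were per whole gene and do not show whether the Tle3 transcript was intact.

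Zymogen granules form when secretory cargo condenses in the Golgi apparatus and binds a matrix at the granule membrane. Gp2 is a major glycoprotein anchored to that membrane, Zg16 is a lectin that tethers cargo to it, and syncollin, the product of Sycn, lies on its inner face and takes part in exocytosis. Spink1 travels with the cargo and blocks trypsin that becomes active too early, and Erp27 binds the protein disulphide isomerase Pdia3 in the endoplasmic reticulum, where the cargo is folded.

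Of the 10 genes, 6 lie on chromosome 7 (Zg16, Sycn, Gp2, Klk1, Cuzd1 and Dmbt1), and Dmbt1 and Cuzd1 are 187 kb apart there, with 2 protein-coding genes between them. Promoter sequence from RefSeq (GRCm38.p6) was at hand for 6 members, Rnase1, Sycn, Gp2, Klk1, Cuzd1 and Serpini2. The 250 bases before the annotated start are printed for Rnase1, Klk1 and Serpini2, the members that were lower than control in both comparisons, so that a reader can see what precedes the genes the results turn on. They run 5′ to 3′ along the gene's strand. Capitals mark CACCTG or its reverse complement CAGGTG, the E-box favoured by the acinar factor Ptf1a with its E-protein partners, and TATAAA or its reverse complement TTTATA.
Rnase1: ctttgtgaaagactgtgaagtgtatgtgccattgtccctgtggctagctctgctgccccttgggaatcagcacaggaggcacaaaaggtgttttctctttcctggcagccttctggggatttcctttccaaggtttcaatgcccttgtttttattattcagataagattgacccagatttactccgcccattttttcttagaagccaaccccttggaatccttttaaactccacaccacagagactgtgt
Klk1: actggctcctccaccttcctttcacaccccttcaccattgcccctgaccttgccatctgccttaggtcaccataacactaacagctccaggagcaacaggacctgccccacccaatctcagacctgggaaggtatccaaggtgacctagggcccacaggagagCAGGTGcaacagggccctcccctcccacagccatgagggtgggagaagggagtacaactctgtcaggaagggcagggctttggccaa
Serpini2: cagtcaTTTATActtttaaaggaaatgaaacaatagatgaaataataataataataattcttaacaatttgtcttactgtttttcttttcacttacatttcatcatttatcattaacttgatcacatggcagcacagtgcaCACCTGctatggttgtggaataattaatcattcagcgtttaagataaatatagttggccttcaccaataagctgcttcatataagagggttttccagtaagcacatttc
The Rnase1 window is chr14:51146768-51147017 on the minus strand, that of Klk1 is chr7:44225110-44225359 on the plus strand and that of Serpini2 is chr3:75270079-75270328 on the minus strand. CACCTG was found on either strand in 2 of the 6 member windows, Klk1 (first base at -87, counted back from the start) and Serpini2 (-109), and in 17.2% of 32817 windows of the same length. TTTCCC, the other element of the Ptf1a complex site, was in 0 of the 6 windows and in 21.9% of all. Of the other motifs searched on both strands, CANNTG (any E-box, so it includes CACCTG and CATATG) was in 4 member windows and 66.2% of all, TATAAA in 2 and 12.4%, AAGGTCA (nuclear receptors such as Nr5a2) in 1 and 4.08%, TNTTTAC (Foxa factors) in 1 and 10.9%, and CATATG (the E-box of Bhlha15) in 0 and 3.47%. The Rnase1 window held none of the 7 motifs. These are matches of letters in a short window and say nothing about binding.

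Gene counts summed to 46817453 to 62744499 per library. By Xist and the Y-linked Ddx3y, 1 control, 1 Grg3-labelled and all 3 Grg3Grg4-labelled libraries came from male embryos. The acinar identity of the tissue was plain in every library: 6 acinar markers (Cpa1, Ptf1a, Rbpjl, Bhlha15, Cel and Cckar) summed to 47826 to 55962 CPM in the controls, 18975 to 39906 in the Grg3-labelled and 29420 to 30662 in the Grg3Grg4-labelled libraries. Cpa1 and Cel, which are also digestive enzymes, made up most of each sum. Ptf1a stood at 36.1 to 39.4, 32.3 to 64.7 and 35.3 to 40.2 CPM in the 3 groups, and Rbpjl at 477 to 641, 373 to 692 and 697 to 837. Against control 0 of the 6 passed in either comparison by edgeR. DESeq2 and limma's voom each called 1 lower in the Grg3-labelled and 2 lower in the Grg3Grg4-labelled libraries, with 0 higher. All libraries lay below all controls for 1 and 4 of the 6, as for 12% and 14.2% of all genes tested. They lay above for 0 and 1, as for 12.6% and 14.9% of all. Replicate 2 of the Grg3-labelled group had the lowest sum of the 6 markers, and it also had the lowest value of its group for 9 of the 10 genes (all but Klk1). Its mesenchyme markers summed to 13153 CPM against 8335 to 10260 in the other 8 libraries. Log2 changes of the Grg3-labelled libraries against control are given with and without it. In a whole organ, fewer acinar cells and less of an RNA per acinar cell cannot be told apart.

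In the control pancreas the 10 genes together took 1.73% to 1.91% of all gene counts, and a list of 29 digestive enzyme genes took 36.7% to 39.3%. Per kilobase of exon, which allows levels to be compared between genes, Rnase1 led the set with 7056 ± 524 CPM per kb (SD, n = 3), followed by Sycn with 4918 ± 371. Zg16 (1890 ± 216) and Klk1 (1686 ± 165) came next and overlapped in their libraries. Spink1 (838 ± 65.3), Dmbt1 (650 ± 138) and Serpini2 (451 ± 48.3) formed the middle, where Dmbt1 overlapped with both of its neighbours in the order. Cuzd1 (131 ± 19.8), Erp27 (111 ± 1.78) and Gp2 (75.2 ± 31.4) were lowest, and each overlapped with the next. The span from Gp2 to Rnase1 was 93.8-fold, so the ribonuclease and syncollin messages far outnumbered that of the membrane glycoprotein Gp2.

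The order differed at few places in the mutant-labelled groups, and Erp27 ranked above Cuzd1 in both. In the Grg3-labelled libraries Rnase1 (3392 ± 1031 CPM per kb) and Sycn (3097 ± 627) overlapped, which they did not in the controls, and Spink1 moved up past Klk1 in rank (966 ± 279 against 766 ± 69.9) with overlapping libraries. In the Grg3Grg4-labelled libraries Rnase1 (3416 ± 317) again stood clear of Sycn (2283 ± 436). Gp2 was lowest in all 3 groups.

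**Figure D1:**
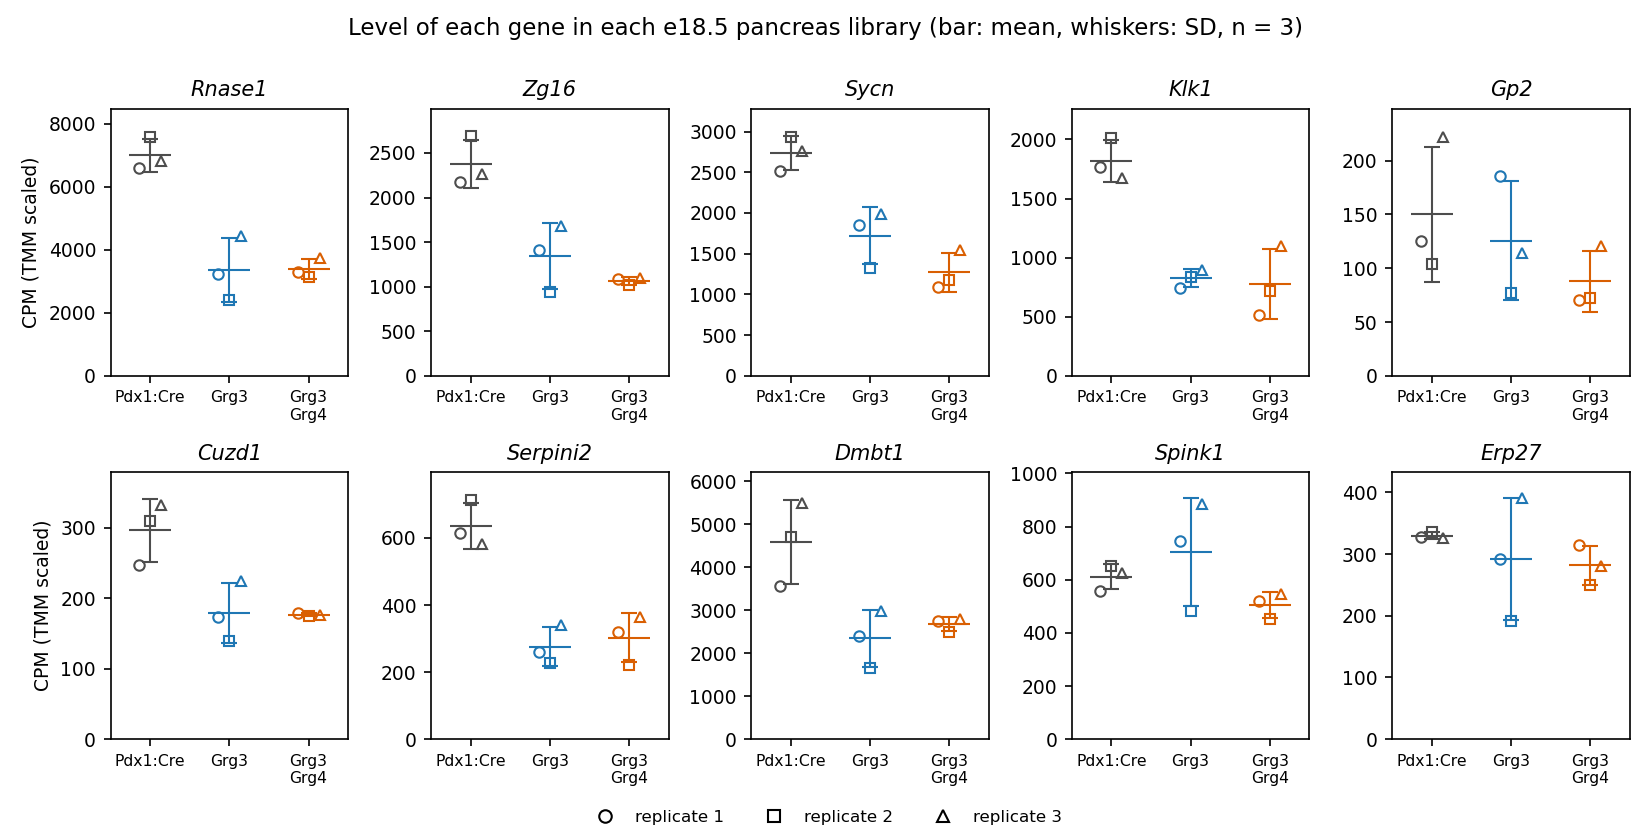
Level of each of the 10 genes in each library, in TMM-scaled CPM (linear axes from 0), for the Pdx1:Cre controls, the Grg3-labelled and the Grg3Grg4-labelled groups. Points are libraries with 1 symbol per replicate number, bars are means and whiskers are SD (n = 3). Rnase1, Klk1 and Serpini2 sit below all controls in all 6 mutant-labelled libraries, while Gp2 overlaps in both groups.

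The first comparison sets the Grg3-labelled libraries against control, the genotype with 1 of these co-repressors in its label. Serpini2, Klk1 and Rnase1 were lower, at 43.4%, 45.4% and 48.1% of the control level, and the other 7 genes did not pass the test (edgeR quasi-likelihood F test, Benjamini-Hochberg adjusted p under 0.05 over 19166 genes). Of all genes tested, 1.4% were called in this comparison, 0.694% lower and 0.704% higher, and 0 of the 10 were higher (0 at an unadjusted p under 0.05, 0 by DESeq2 and 0 by limma's voom). The 10 genes had a median log2 change of -0.77, beside 0.02 for all genes, with 9 below 0 and Spink1 above. For 7 of the 10 all 3 libraries lay below all 3 controls, as they did for 12% of all genes tested, and for 0 of the 10 they lay above, as for 12.6% of all. Of these 7, Zg16, Sycn, Cuzd1 and Dmbt1 had log2 changes of -0.67 to -0.97 and adjusted p of 0.0629 to 0.0999 (edgeR), so they stood near the threshold without passing. Without Grg3-labelled replicate 2 their changes were smaller, at -0.62, -0.51, -0.58 and -0.77. Klk1 and Serpini2 were then at -1.15 and -1.08. Leaving out 1 library moved the count of 3: it became 0 when control replicate 2, control replicate 3 or Grg3-labelled replicate 1 was dropped, 1 when control replicate 1 was dropped, 2 when Grg3-labelled replicate 2 was dropped and 5 when Grg3-labelled replicate 3 was dropped, while the share of all genes called lower in the first 3 of these fits was 0.111%, 0.0855% and 0.157%. It was 7 by DESeq2's Wald test, with 3.99% of all genes called lower, and 1 with a sex term in the fit.

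The second comparison sets the Grg3Grg4-labelled libraries, with both co-repressors in the label, against the same controls. Here 5 of the 10 genes were lower, Klk1, Zg16, Sycn, Serpini2 and Rnase1, at 42.8% to 48.4% of the control level (edgeR adjusted p of 0.0197 to 0.0358), against 0.897% of all genes called lower, 1.24% called higher and 2.14% called in either direction. Again 0 of the 10 were higher by edgeR, DESeq2 or voom, or at an unadjusted p under 0.05. The median log2 change of the 10 was -0.91, beside 0.01 for all genes, and all 10 were below 0. For 9 of the 10, all but Gp2, every library lay below every control, as for 14.2% of all genes tested (every library above every control, 0 of the 10 and 14.9% of all). Cuzd1 missed the threshold narrowly, at a log2 change of -0.75 (SE 0.16) with an edgeR adjusted p of 0.05001. The count of 5 became 0 without any single control, without Grg3Grg4-labelled replicate 1 or without replicate 2, and 4 without replicate 3, with 0.131% to 0.297% of all genes called lower in the fits that left 0. With a sex term it was 0, with 0.0783% of all genes called lower. All 3 of these libraries and 1 of the 3 controls were male, and against that 1 male control the median log2 difference of the 10 genes was -0.74, with all 10 below 0. This comparison and the previous one share their controls, so the recurrence of Klk1, Serpini2 and Rnase1 in both is not a repeat on separate samples.

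**Figure D2:**
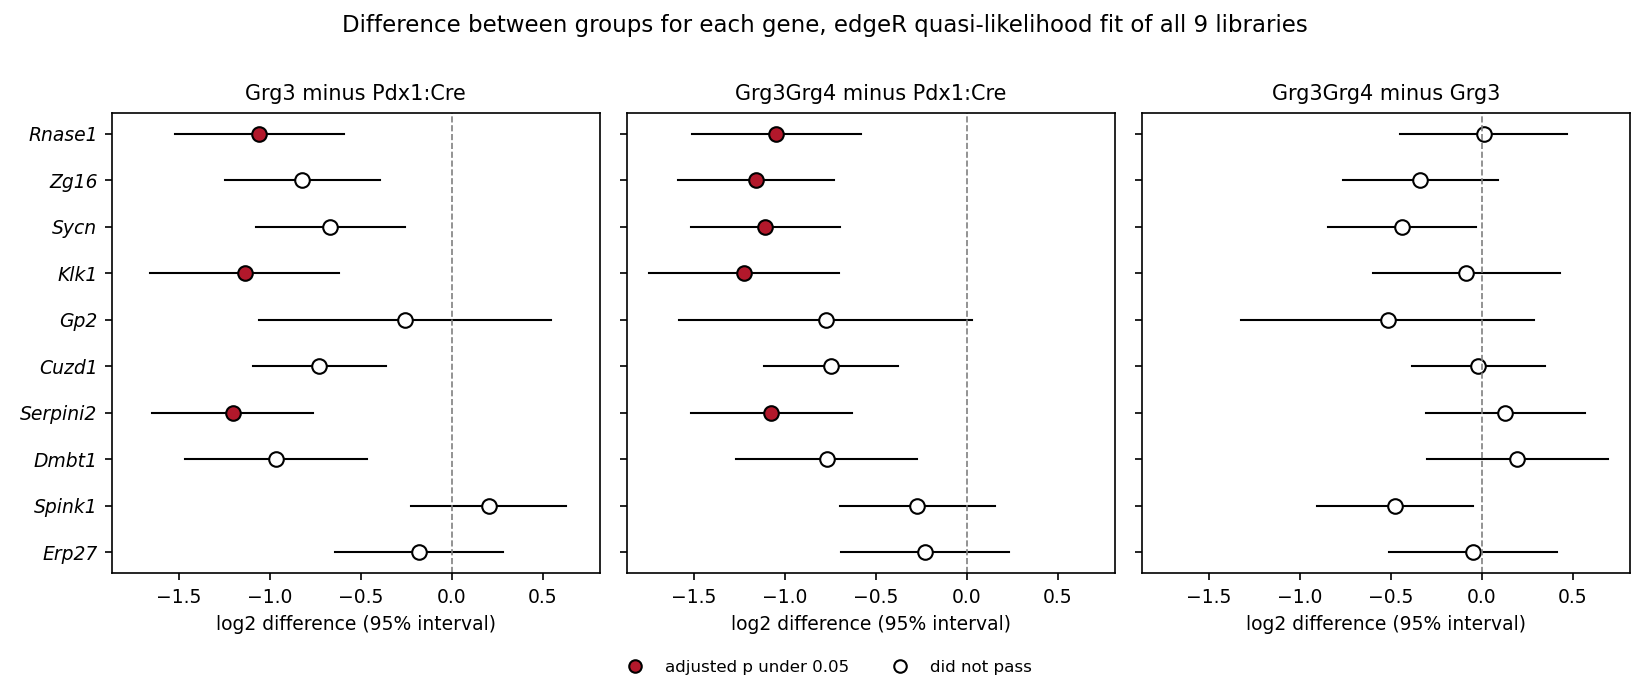
Log2 difference of each gene between groups with its 95% interval, from 1 edgeR fit of all 9 libraries, for both comparisons with the Pdx1:Cre controls and for the Grg3Grg4-labelled against the Grg3-labelled libraries. Filled points passed at an adjusted p under 0.05. In the left and middle panels 3 and 5 genes passed, and in the right panel 0 passed, with every point between -0.52 and 0.20.

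Among the secreted cargo, Rnase1 (chromosome 14, 51144998 to 51146785, GRCm38), which digests RNA in the gut lumen, was the most abundant. It was measured at 6598, 7586 and 6815 CPM in control replicates 1, 2 and 3, at 3223, 2420 and 4450 in the Grg3-labelled and at 3299, 3128 and 3738 in the Grg3Grg4-labelled libraries. All 6 mutant-labelled libraries lay below the lowest control. The log2 change was -1.06 (SE 0.21, edgeR adjusted p = 0.0431) in the Grg3-labelled and -1.05 (SE 0.21, edgeR adjusted p = 0.0358) in the Grg3Grg4-labelled libraries. Without Grg3-labelled replicate 2, the lowest library, the first of these was -0.87 with an edgeR adjusted p of 0.0402. The first call was lost in 7 of 15 alternatives: without each control in turn, without Grg3-labelled replicate 1, with a replicate block, in a fit of the 6 libraries alone and with a sex term (edgeR adjusted p = 0.0639), at log2 changes of -1.10 to -0.99. Within the female libraries (2 against 2) the difference was -1.07 and within the male ones (1 against 1) it was -1.03, with no test.

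Klk1 (chromosome 7, 44225360 to 44229618) encodes tissue kallikrein, a serine protease that releases kinins. Its levels were 1763, 2015 and 1671 CPM in the controls, 745, 835 and 895 in the Grg3-labelled and 515, 718 and 1098 in the Grg3Grg4-labelled libraries. The Grg3-labelled libraries were close together and the Grg3Grg4-labelled ones spread 38.1% (coefficient of variation), with no overlap with the controls in either group. The log2 changes were -1.14 (SE 0.23) and -1.22 (SE 0.23), with edgeR adjusted p of 0.0482 and 0.0331. The first of these calls ended without any 1 of the 6 libraries compared, at log2 changes from -1.20 to -1.06. Klk1 stands among near-identical kallikrein genes whose reads the counting could split or set aside, so its level is uncertain. The 13 Klk1b genes together held 26.3 to 49.9 CPM in a library, and of the 9 that were tested Klk1b5 was lower in the Grg3Grg4-labelled libraries (-1.03, edgeR adjusted p = 0.0314) and at -0.92 in the Grg3-labelled ones (edgeR adjusted p = 0.0511). The annotated extent of a pseudogene on the other strand, Gm10109, overlaps Klk1 exons, and it had 154 to 488 counts in a library.

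Of the proteins at the granule membrane, Zg16 (chromosome 7, 127050156 to 127087328) was measured at 2179, 2686 and 2264 CPM in the controls, 1417, 942 and 1675 in the Grg3-labelled and 1082, 1016 and 1094 in the Grg3Grg4-labelled libraries. The 3 Grg3Grg4-labelled values had a coefficient of variation of 3.95%, and all 6 mutant-labelled libraries lay below the controls. Its log2 change was -1.16 (SE 0.19, edgeR adjusted p = 0.0197) in the Grg3Grg4-labelled libraries and -0.82 (SE 0.19, edgeR adjusted p = 0.0674) in the Grg3-labelled ones.

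Sycn (chromosome 7, 28540885 to 28542209) stood at 2517, 2927 and 2759 CPM in the controls, 1852, 1327 and 1987 in the Grg3-labelled and 1091, 1172 and 1545 in the Grg3Grg4-labelled libraries. The controls lay above all others, and the 2 mutant-labelled groups overlapped in 1 library each. Its log2 change was -1.11 (SE 0.18, edgeR adjusted p = 0.0197) in the Grg3Grg4-labelled libraries, and it differed by -0.67 (SE 0.18, edgeR adjusted p = 0.0999) in the Grg3-labelled ones. Samd4b, on the other strand, overlaps it, with 3160 to 5060 counts in a library.

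Gp2 (chromosome 7, 119442537 to 119459285) had the widest spread of the 10 among the controls and the Grg3-labelled libraries, though not among the Grg3Grg4-labelled ones, where Klk1 had it. Its levels were 125, 104 and 222 CPM in the controls, 186, 76.5 and 115 in the Grg3-labelled and 70.8, 72.3 and 120 in the Grg3Grg4-labelled libraries. The coefficient of variation was 41.7% among the controls, against 1.61% to 21.3% for the other 9 genes, and both mutant-labelled groups overlapped with the controls. Log2 changes of -0.26 (95% interval -1.06 to 0.54) and -0.78 (-1.58 to 0.03) did not pass (edgeR adjusted p = 0.743 and 0.265). The interval of the first change reaches beyond 0 on both sides by enough to hold a 2-fold fall as well as no change. Without control replicate 3, its highest library, the first difference was 0.13 and the second -0.39, without Grg3-labelled replicate 1 the first was -0.65, without Grg3-labelled replicate 2 it was 0.0010, and without Grg3Grg4-labelled replicate 3 the second was -1.07.

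Cuzd1 and Dmbt1 lie near each other on chromosome 7 (131308554 to 131322292 and 131032053 to 131121630). Cuzd1 encodes a granule membrane protein with CUB and zona pellucida domains, and Dmbt1 a large secreted glycoprotein with scavenger receptor and CUB domains that binds microbes at mucosal surfaces. Cuzd1 was measured at 247, 309 and 333 CPM in control replicates 1, 2 and 3, at 173, 140 and 224 in the Grg3-labelled and at 179, 175 and 176 in the Grg3Grg4-labelled libraries. Dmbt1 had 3558, 4701 and 5500 CPM in the same controls, 2391, 1662 and 2995 in the Grg3-labelled and 2760, 2502 and 2807 in the Grg3Grg4-labelled libraries. In both genes control replicate 1 was the lowest control and replicate 3 the highest, an order seen in no other member, and all 6 mutant-labelled libraries lay below the controls. Neither passed. Cuzd1 differed by -0.73 and -0.75 in log2 (edgeR adjusted p = 0.0629 and 0.05001) and Dmbt1 by -0.97 and -0.77 (edgeR adjusted p = 0.067 and 0.1003). Both passed by DESeq2's Wald test and by limma's voom in both comparisons. Both genes lie inside the annotated extent of Fgfr2, which had 2388 to 5147 counts in a library.

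Serpini2 (chromosome 3, 75242370 to 75270078), a serpin made by acinar cells, had the smallest p of the 10 in the Grg3-labelled comparison. It stood at 616, 713 and 581 CPM in the controls, 261, 226 and 342 in the Grg3-labelled and 319.5, 222 and 365 in the Grg3Grg4-labelled libraries. Every mutant-labelled library was well under the lowest control. The log2 change was -1.20 (SE 0.20, edgeR adjusted p = 0.0256) and -1.08 (SE 0.20, edgeR adjusted p = 0.0298). In the Grg3-labelled comparison Serpini2 was the 1 member still called with the replicate number as a block, with the sex term, and without control replicate 1.

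Spink1 lies on chromosome 18. It was measured at 558, 651 and 624 CPM in the controls, 744, 483 and 885 in the Grg3-labelled and 519.5, 452 and 546 in the Grg3Grg4-labelled libraries. The Grg3-labelled libraries lay on both sides of the controls, and the Grg3Grg4-labelled ones just below them. Its log2 changes of 0.20 (95% interval -0.22 to 0.63) and -0.27 (-0.70 to 0.15) did not pass (edgeR adjusted p = 0.603 and 0.467). With 1 library left out the first ran from 0.0059 (without Grg3-labelled replicate 3) to 0.41 (without Grg3-labelled replicate 2).

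Erp27 (chromosome 6, 136907311 to 136922180) is the 1 member that stays in the endoplasmic reticulum. It stood at 328, 336 and 326 CPM in the controls, the tightest control group of any member at a coefficient of variation of 1.61%. The Grg3-labelled libraries had 292, 192 and 391 CPM and the Grg3Grg4-labelled ones 314, 250 and 281. Log2 changes of -0.18 (SE 0.21) and -0.23 (SE 0.21) did not pass (edgeR adjusted p = 0.685 and 0.587), and without Grg3-labelled replicate 2 the first was 0.05.

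Between the 2 mutant-labelled groups, 0 of the 10 genes passed (edgeR quasi-likelihood test), where 0.188% of all genes did, 0.0574% lower and 0.13% higher in the Grg3Grg4-labelled libraries. At an unadjusted p under 0.05 there were 2, Sycn with a log2 difference of -0.44 (95% interval -0.85 to -0.03) and Spink1 with -0.48 (-0.90 to -0.05), both lower in the Grg3Grg4-labelled libraries (edgeR adjusted p = 0.254 and 0.24). DESeq2 and limma's voom called 0 as well. For Rnase1 (0.01, 95% interval -0.45 to 0.47), Klk1 (-0.09, -0.60 to 0.43) and Serpini2 (0.13, -0.31 to 0.57) the intervals exclude a 2-fold difference in either direction. All 10 genes overlapped between these groups, while 9.3% of all genes lay below and 11.8% above without overlap.

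The genes did not keep their proportions within a library. Spink1 had 8.46 to 9.16 counts for every 100 of Rnase1 in the controls, 19.9 to 23.1 in the Grg3-labelled and 14.5 to 15.7 in the Grg3Grg4-labelled libraries, so that the 3 groups did not overlap. Zg16 had 33.0 to 35.4, 37.6 to 44.0 and 29.3 to 32.8 counts per 100 of Rnase1, which did not overlap between the 3 groups either. For Klk1 the same ratio was 24.5 to 26.7, 20.1 to 34.5 and 15.6 to 29.4, with overlap throughout. Against the summed counts of 6 trypsinogen genes (Prss1, Prss2, Prss3, Try4, Try5 and Try10), the proteases that Spink1 restrains, Spink1 had 20.5 to 22.2 counts per 1000 in the controls, 44.1 to 49.5 in the Grg3-labelled and 30.5 to 36.8 in the Grg3Grg4-labelled libraries. Trypsinogen genes are near copies of each other, so reads that matched several of them are missing from these sums. The 10 genes together made up 4.5% to 4.81% of their own counts plus those of the digestive enzymes in the controls, 3.31% to 3.76% in the Grg3-labelled and 3.36% to 3.80% in the Grg3Grg4-labelled libraries. These ratios need no scaling between libraries. They were chosen after the values were seen and are given as a description, with no test.

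**Figure D3:**
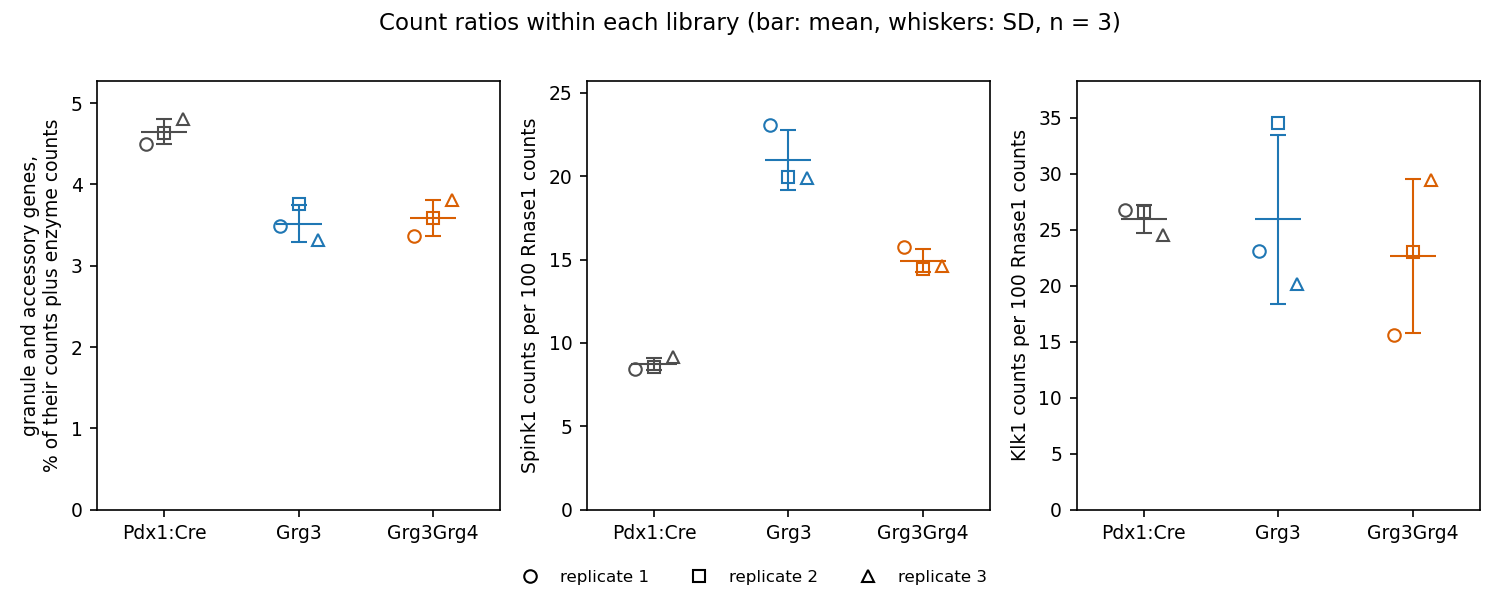
Ratios of raw counts within each library for the 3 groups: the 10 genes as a percentage of their own counts plus digestive enzyme counts (left), Spink1 counts per 100 Rnase1 counts (middle) and Klk1 counts per 100 Rnase1 counts (right), axes from 0. Points are libraries, bars are means and whiskers are SD (n = 3). The Spink1 ratio lies at 8.46 to 9.16, 19.9 to 23.1 and 14.5 to 15.7 in the 3 groups, and the Klk1 ratio overlaps.

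Other acinar genes give the setting. Of 29 digestive enzyme genes, 6 were lower in the Grg3-labelled and 6 in the Grg3Grg4-labelled libraries (edgeR), with medians of -0.46 and -0.51. Of all genes tested, 0.694% and 0.897% were called lower. At an unadjusted p under 0.05 there were 11 and 14 enzymes lower, by DESeq2 10 and 13, and by voom 7 and 12, with 0 higher in each. All 3 libraries lay below all 3 controls for 13 and 19 of the 29, as for 12% and 14.2% of all genes. The trypsinogen Prss1 changed by -2.59 (SE 0.27) and -3.03 (SE 0.27) and the chymotrypsin-like Ctrl by -2.49 (SE 0.21) and -2.69 (SE 0.22), more than any of the 10 genes. Pnliprp2, a lipase-related protein, fell by 1.22 (SE 0.17) and 1.25 (SE 0.17), close to Klk1 and Serpini2. Levels of Prss1 and Prss3 are uncertain because of their copies. Of 20 genes of granule traffic and exocytosis, 0 passed in the Grg3-labelled libraries (6 at an unadjusted p under 0.05, 2 by DESeq2 and 0 by voom, with edgeR as the main test), with a median of -0.07. In the Grg3Grg4-labelled ones 1 passed by edgeR, Vamp2, a SNARE of the granule membrane, and it was higher by 0.57 (SE 0.09, edgeR adjusted p = 0.0188), with a median of -0.13 for the list. There 5 were lower and 2 higher at an unadjusted p under 0.05, DESeq2 called 2 lower and 2 higher, and voom called 1 lower and 2 higher.

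Of 22 folding factors of the secretory pathway, the neighbourhood of Erp27, 0 passed in either comparison by edgeR, DESeq2 or voom (4 and 0 at an unadjusted p under 0.05), with medians of -0.06 and -0.10. Of 14 receptors and calcium release genes that drive granule secretion, 0 passed in both (edgeR, with 2 and 4 at an unadjusted p under 0.05, 0 and 2 by DESeq2, 0 and 1 by voom). The muscarinic receptor gene Chrm3 stood at 8.57 CPM in the Grg3Grg4-labelled libraries against 16.0 in the controls (-0.90, edgeR adjusted p = 0.0648). Of 12 acinar transcription factors, 0 passed in the Grg3-labelled libraries (1 at an unadjusted p under 0.05, 1 by DESeq2 and 1 by voom, beside edgeR). In the Grg3Grg4-labelled ones Rbpj, the Notch effector that precedes Rbpjl in the Ptf1a complex, was lower, with a log2 change of -1.08 (SE 0.24, edgeR adjusted p = 0.0484). Whether the lists differ from each other was not tested.

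**Figure D4:**
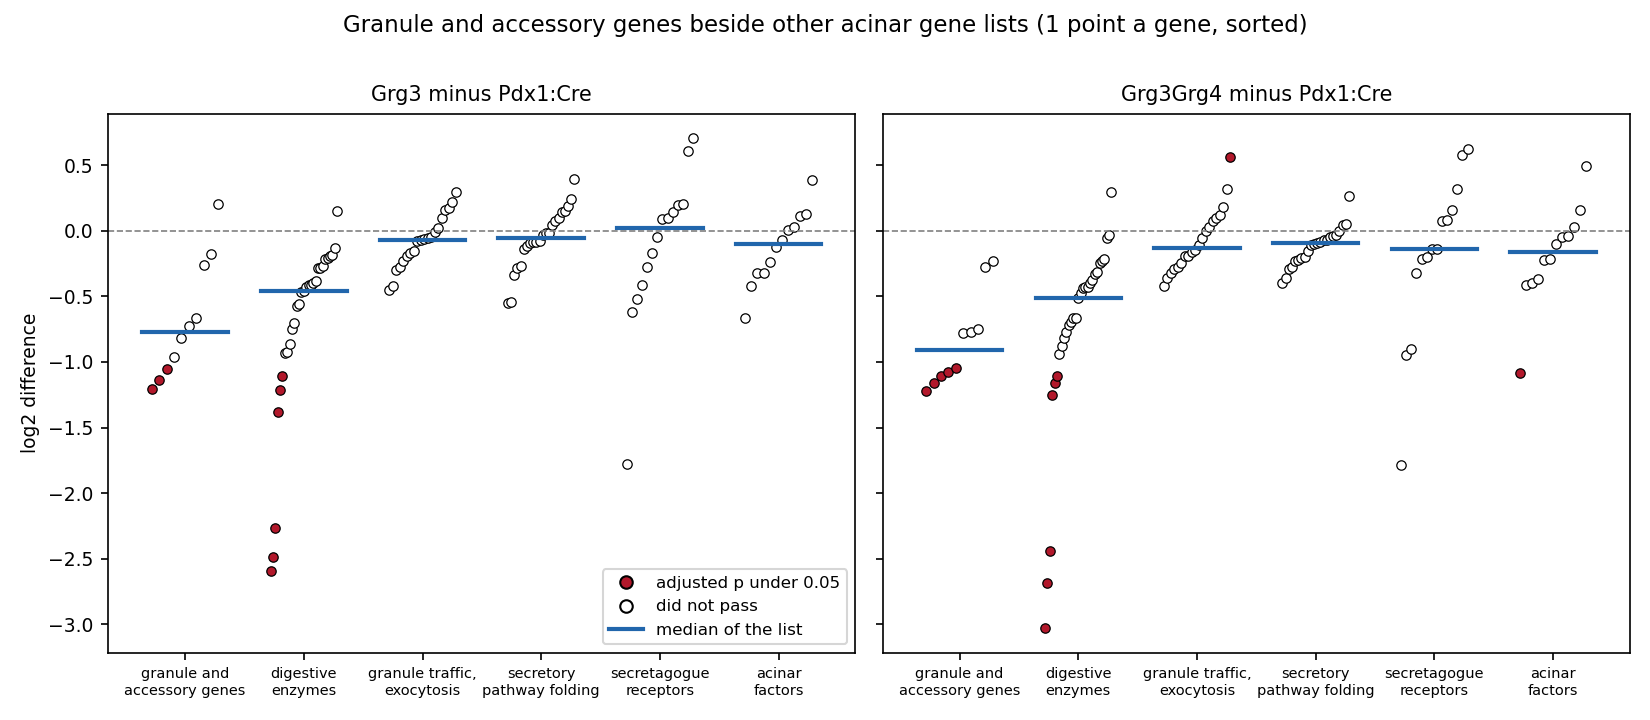
Log2 difference from the Pdx1:Cre controls of each gene in the 10-gene set and in 5 other acinar lists, for the Grg3-labelled (left) and Grg3Grg4-labelled libraries (right). Each point is a gene, sorted within its list, filled where the adjusted p was under 0.05, and blue lines are list medians. The medians of the 10 genes are -0.77 and -0.91 and those of the digestive enzymes -0.46 and -0.51, while the other 4 lists lie between -0.16 and 0.02.

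The acinar regulators Ptf1a, Rbpjl, Bhlha15 and Nr5a2, taken from the 12 factors above, gave a reference that does not use secreted products. None of these regulators passed against control in either comparison (edgeR), and their values did not all lie on the same side of the controls. In the Grg3Grg4-labelled libraries Rbpjl was at 697 to 837 CPM, above the 477 to 641 of the controls, as for 14.9% of all genes. Bhlha15 was there at 236 to 291 CPM, below the 318 to 355 of the controls, as for 14.2% of all. Nr5a2 lay below all controls in both mutant-labelled groups (12% and 14.2% of all genes), and Ptf1a overlapped with them in both. The geometric mean of the regulators was 146 to 162 CPM in the controls, 100 to 185 in the Grg3-labelled and 132 to 164 in the Grg3Grg4-labelled libraries, with Grg3-labelled replicate 2 lowest. Relative to that mean, Rnase1 differed from control by -0.99 and -0.97 on the log2 scale, Klk1 by -1.03 and -1.21 and Serpini2 by -1.11 and -1.02. In this measure Spink1 differed by 0.27 and -0.20 and Erp27 by -0.13 and -0.16, and the medians of the 10 were -0.69 and -0.82. For Rnase1, Klk1 and Serpini2 these values lay near their log2 changes against the whole library. The part of acinar cell number in these differences was not tested.

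Markers of other cells are given as sums, and edgeR called few outside the liver list. Against control it called 0 muscle, duct, leukocyte, erythroid, mesenchyme and endothelial markers in both comparisons. Of 8 islet markers it called 0 and 1, the latter lower. DESeq2 called 3 muscle markers higher in each comparison, and 1 islet and 1 leukocyte marker higher in the first. In the second it called 5 islet, 2 duct and 1 leukocyte marker lower. Voom called 0 markers of these lists in the first comparison. In the second it called 5 islet, 1 duct and 1 leukocyte marker lower and 1 muscle marker higher. Of 10 liver markers, 8 were higher in each mutant-labelled group by edgeR, 10 in each by DESeq2, and 2 and 3 by voom. Their sum was 212 to 226 CPM in the controls, 362 to 1780 in the Grg3-labelled and 827 to 2013 in the Grg3Grg4-labelled libraries. Ttr alone held 199 to 221 CPM in the controls, so their sums say little about the other liver markers. Alb, for example, stood at 2.37 to 5.47, 37.9 to 636 and 257 to 811 CPM in the 3 groups. The median log2 changes of the 10 liver markers were 6.17 and 6.88. The sum of 8 muscle markers was 122 to 177, 304 to 842 and 216 to 1897 CPM, and that of 8 islet markers was 5997 to 7249, 3630 to 5807 and 1930 to 4204 CPM. The muscle sum of 1897 CPM was that of Grg3Grg4-labelled replicate 2, with Acta1 at 892 and Actc1 at 172 CPM. Replicates 1 and 3 of that group summed to 415 and 216 CPM. Duct markers, 8 genes, summed to 1041 to 1085, 999 to 1013 and 787 to 990 CPM, leukocyte markers, 8 genes, to 91.9 to 120, 146 to 168 and 82.8 to 198 CPM, and erythroid markers, 6 genes, to 1631 to 2046, 1916 to 3329 and 1659 to 3321 CPM. Mesenchyme markers, 8 genes, gave 9299 to 10260, 8335 to 13153 and 9181 to 9406 CPM, and endothelial markers, 6 genes, 649 to 687, 577 to 787 and 523 to 645 CPM. The part of these cells in the results on the 10 genes was not tested.

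Several of the 10 genes are known outside the pancreas, Klk1 in salivary gland, Zg16 and Dmbt1 in intestine and Gp2 in the M cells of the gut. Of 6 salivary markers, 5 were in the files, and Smr3a, Prol1, Prb1 and Bpifa2 had 0 counts in all 9 libraries. The fifth, Dcpp1, reached 0.0612 CPM at most. Of 10 intestinal goblet cell and enterocyte markers the sum was 62.8 to 69.0 CPM in the controls, 50.5 to 80.4 in the Grg3-labelled and 59.4 to 63.7 in the Grg3Grg4-labelled libraries. Of the 8 of these markers that were tested, 2 were higher in the Grg3-labelled libraries (edgeR, with 5 by DESeq2), with 7 above 0 and a median log2 change of 1.32. In the Grg3Grg4-labelled libraries 0 passed (edgeR, with 1 at an unadjusted p under 0.05, 1 by DESeq2 and 0 by voom), with a median of -0.03, and 1 was lower than in the Grg3-labelled ones. The part of such cells in the levels of Zg16 and Dmbt1 was not tested. Of 10 stomach markers the 9 that were in the files summed to 26.5 CPM in Grg3-labelled replicate 3 and to 4.12 to 8.93 CPM in the other libraries. Gkn1 and Gkn2 had 179 and 314 counts in that replicate, 0 in the controls and 0 to 4 in the other mutant-labelled libraries.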

How the data were processed

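Each library has a deposited table of whole-number read counts by gene symbol, left unnormalized by the authors. Tools named, without roles, per the submitters' processing notes are HISAT2, HTSeq, Trim Galore, FastQC, DESeq2 and bedtools, with builds GRCm38 and mm10. No version, annotation or strand setting was found in the labels, so reads of overlapping genes on opposite strands may not be told apart. The 5 rows of each file that name no gene held 28.5% to 33.2% of reads and stayed out of library sizes and tests. Most were reads aligned to several places, which lowers genes with near copies.

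A single model with 1 mean for each group was fitted to the 9 libraries in edgeR 4.0.16 (R 4.3.3), with TMM scaling, filterByExpr (minimum count 10, total 15), the 2-sided quasi-likelihood F test and Benjamini-Hochberg adjustment over 19166 genes. SE was taken as |log2 change| over the root of F. CPM per kb divides CPM by the exon union of GENCODE M21 on GRCm38. The alternatives were other scalings and filters, a replicate block, a fit of just the 6 libraries at issue, leaving out each library, DESeq2 1.42.0, limma 3.58.1 voom with quality weights and, added after seeing the data, embryo sex. The fitting was tested on simulated data. The labels give 3 embryos a genotype but no litters, so p-values measure the spread between these libraries. Replicates differed by more than counting noise, with a chi-square per degree of freedom of 17.1 to 193.

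The 10 genes and the lists were chosen with earlier results of these data known. The text names the 10 genes, Tle3 and Tle4, near copies of Klk1 and, of each other acinar list, some of up to 4 genes with the smallest p.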

Additional observations from a re-analysis of the deposited data

How the results depend on the processing

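Over 15 alternatives for each of 10 genes in 3 comparisons, 363 of 450 values kept their direction and side of the threshold, 50 lost a call, 21 gained one and 16 changed sign. The genes called lower against control kept that direction in all alternatives, with log2 changes from -1.39 to -0.87 in the Grg3-labelled and -1.56 to -0.90 in the Grg3Grg4-labelled libraries. What moved was the call. In the Grg3-labelled comparison 3 genes were lower as reported (0.694% of all genes), 6 with no filter beyond 1 count (0.831%), 7 by DESeq2's Wald test (3.99%), 6 by limma's voom (1.12%) and 1 with sex as a term (0.459%). Leaving out 1 library gave 0 to 5 (0.0855% to 0.866%). In the Grg3Grg4-labelled comparison the 5 genes (0.897%) became 7 by DESeq2 (3.45%), 7 by voom (2.51%), 7 with the 6 libraries alone (1.84%), 6 with no filter (1.02%), 6 with a 1 CPM filter (1.29%), 0 with sex as a term (0.0783%) and 0 to 4 with 1 library left out (0.131% to 0.9%). No setting called a member higher, and between the mutant-labelled groups no setting called any.

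Same-numbered libraries did not deviate together (correlations from -0.0858 to 0.094, and 2 of 9 libraries correlated best with their own number), so no pairing by number was seen. With 3 libraries in a group, these correlations cannot show that same-numbered libraries share no litter or handling. With the replicate block the counts of genes called lower were 1, 4 and 0 in the 3 comparisons, beside 0.428%, 0.543% and 0.0313% of all genes.

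Sign changes were all in values that had not passed. With 1 library left out, Gp2 ran from -0.65 to 0.13 and Erp27 from -0.45 to 0.0496 in the Grg3-labelled libraries against control, with 0.0010 for Gp2 without Grg3-labelled replicate 2. Between the mutant-labelled groups the ranges were -0.18 to 0.26 for Rnase1 (-0.02 without Grg3-labelled replicate 1, -0.07 without Grg3Grg4-labelled replicate 3), -0.42 to 0.14 for Klk1, -0.17 to 0.17 for Cuzd1, -0.0288 to 0.31 for Serpini2, -0.0033 to 0.41 for Dmbt1 and -0.28 to 0.22 for Erp27 (0.03 without Grg3Grg4-labelled replicate 2). There Rnase1 was -0.0398 by voom, Klk1 0.0093 and Cuzd1 0.13 with sex as a term, and Cuzd1 0.0013 with the replicate block. The cause was not tested.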
